A study of Homo sapiens with 2 samples.

Results

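Polycomb repressive complex 2 (PRC2) and its Polycomb-like partner PHF19 were examined in Ca9-22 cells, an established human line of gingival squamous carcinoma. The 10 genes, PHF19, PHF1, MTF2, JARID2, EZH2, EZH1, EED, SUZ12, RBBP4 and RBBP7, were chosen by name as subunits or accessory proteins of the complex. PHF19 was selected on its own difference between these 2 arrays, where it had been noted as strongly higher. They were measured by 31 probe sets of 54675, and they were 10 of 19775 genes with a probe set named here. Each probe set is a small set of array oligonucleotides designed to measure a transcript, though some can bind several transcripts. Another probe set, shared with the pseudogene SUZ12P1, was left out. The cells carried either a PTHLH expression vector (Ca9-22-PTHLH) or an empty vector (Ca9-22-EV), and both lines had been infected with their vector and selected with blasticidin for 2 weeks, with no clone named. PTHLH encodes parathyroid hormone-like hormone, a secreted ligand of the PTH1R receptor. Total RNA of 1 culture of each line was hybridised to 1 Affymetrix U133 array, so no difference below has a replicate check and none was tested.

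PRC2 places methyl groups on lysine 27 of histone H3, a mark of silenced genes. EZH2 or EZH1 is the catalytic subunit, EED binds the mark and stimulates the enzyme, SUZ12 is the scaffold, and RBBP4 and RBBP7 bind histones. Accessory proteins send the core to chromatin in alternative assemblies. One assembly holds a Polycomb-like protein (PHF1, MTF2 or PHF19), which binds DNA rich in unmethylated CG and has a Tudor domain that binds methylated lysine 36 of histone H3, and another assembly holds JARID2 with AEBP2. In mouse epidermis PRC2 keeps differentiation genes off in dividing progenitor cells, and EZH2 and EED are known targets of the E2F factors that drive S phase.

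The arrays were alike in scale, with a median intensity of 19.4 with PTHLH and 19.5 with the empty vector, in arbitrary units. The keratinocyte genes KRT5 (10228 with PTHLH and 7823 with the empty vector) and KRT14, DSG3, CDH3 and SFN were bright on both arrays. The other 3 squamous markers on the list were not used here. In the labels, a description field names CX-1, a colon carcinoma line, and the gene RAB3C, against the titles and the paper. The 8 colon epithelium markers were dim, between 7.75 and 37.1 with PTHLH and between 9.40 and 49.1 with the empty vector. One of them, GPA33, was at least 1.5-fold lower, with 31.0 with PTHLH and 49.1 with the empty vector (a log2 difference of -0.66), and the colon-defining factor CDX2 had 26.3 with PTHLH and 27.2 with the empty vector. All but 1 of 6 fibroblast markers had at most 34.3 with PTHLH and 28.6 with the empty vector, the exception being COL1A1 (1652 with PTHLH and 2437 with the empty vector by its brightest probe set, and at most 101 and 102 by the other 4). The level of PTHLH itself is not analysed here.

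Of the 10 genes, PHF19 stood apart. It was the only one at least 1.5-fold higher on the Ca9-22-PTHLH array by its brightest probe set, and 0 of the 10 were at least 1.5-fold lower. Of all 19775 genes, 1.97% were at least 1.5-fold higher and 3.52% at least 1.5-fold lower. By probe set, 3 of 31 were at least 1.5-fold higher, against 2% of the 41097 probe sets with 1 gene symbol, and 0 of 31 were lower, against 2.78%. All 3 were those of PHF19. The list was drawn up with these values known, so the counts describe it and nothing is read from them.

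**Figure D1:**
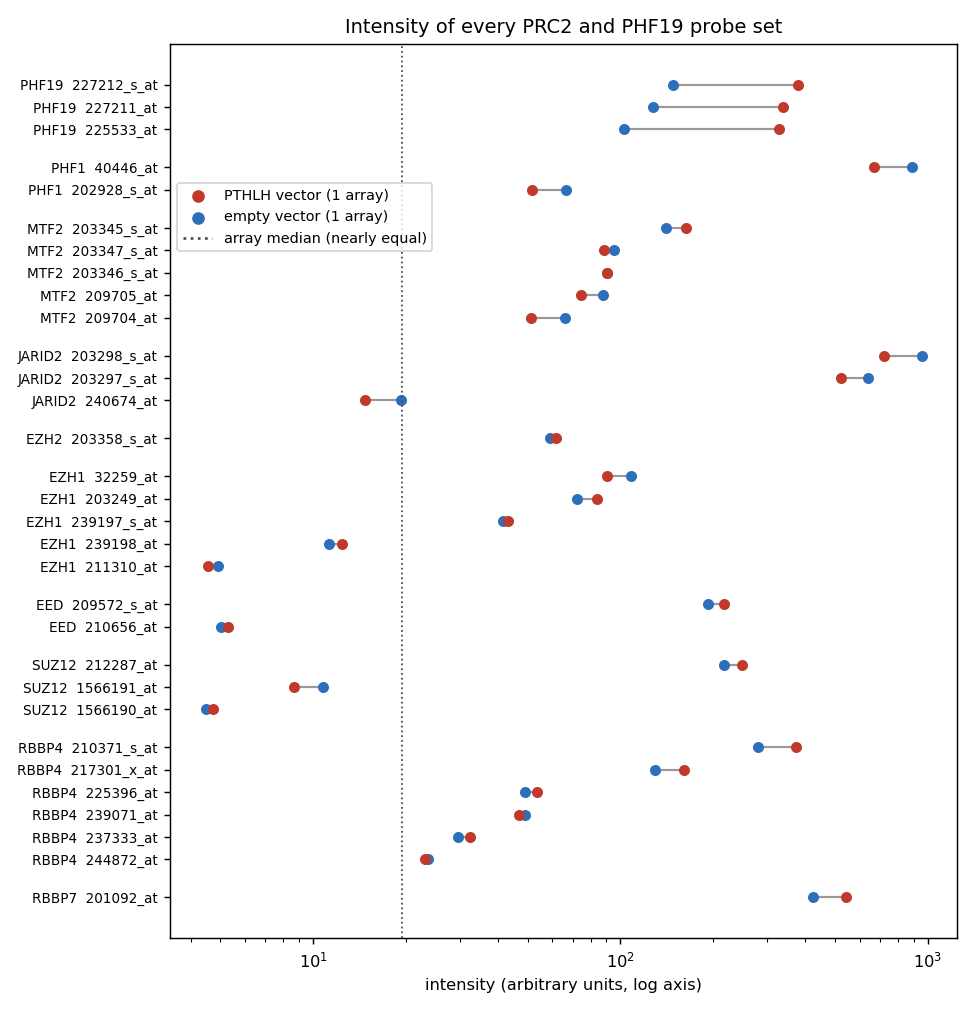
Intensity (arbitrary units, log axis) of the 31 probe sets of the 10 genes, with the PTHLH array in red and the empty vector array in blue, 1 array each, joined by a line. The dotted line is the array median. The 3 PHF19 probe sets lie between 327 and 379 with PTHLH and between 102 and 149 with the empty vector, and the pairs of points of the other genes lie closer together.

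PHF19, the Polycomb-like protein 3, lies on chromosome 9 (GRCh38.p14, chr9:120855651-120904128). Its brightest probe set, 227212_s_at, had an intensity of 379 with PTHLH and 149 with the empty vector, a log2 difference of 1.35 (2.55-fold). The second, 227211_at, had 338 with PTHLH and 128 with the empty vector (2.65-fold). The third, 225533_at, had 327 with PTHLH and 102 with the empty vector (3.19-fold). All 3 were thus above the array medians on both arrays and differed in the same direction, and their log2 differences spanned 0.32. The first 2 were designed on one sequence record and the third on another, and where their probes lie on the RNA is not known here. The suffix s marks a probe set that can bind several transcripts, and the other 2 probe sets of PHF19 do not carry it. In bulk RNA, more PHF19 RNA per cell and more cells with PHF19 RNA cannot be told apart.

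The one measure of error within the arrays was the disagreement between the 2 brightest probe sets of a gene. Over 5594 genes whose pair of probe sets lay above the medians it came to an SD of 0.20 for a single log2 difference. That SD holds the disagreement between probes and nothing of the spread between cultures. Over the 2 arrays, the genes nearest to PHF19 in their pair of log2 intensities were LANCL2 (370 with PTHLH and 160 with the empty vector), DLK2 (367 with PTHLH and 126 with the empty vector), FEN1 (336 with PTHLH and 179 with the empty vector) and MCM5 (294 with PTHLH and 145 with the empty vector), at distances of 0.11, 0.24, 0.32 and 0.37 on the log2 scale. With 2 arrays this likeness says no more than that their values were close.

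The other Polycomb-like genes did not share the difference of PHF19. PHF1, which is Polycomb-like protein 1, had an intensity of 666 with PTHLH and 888 with the empty vector by its brightest probe set, a log2 difference of -0.41. Its second probe set had 51.7 with PTHLH and 66.7 with the empty vector, a log2 difference of -0.37. Both probe sets were lower with PTHLH, by about 2 SD between probe sets, though neither was 1.5-fold lower. Among 12982 genes with the brightest probe set above both medians, 8.96% had a log2 difference at or below that of PHF1.

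MTF2, Polycomb-like protein 2, had no common direction over its 5 probe sets, all above both medians. The brightest had 164 with PTHLH and 140 with the empty vector, a log2 difference of 0.22. The other 4 had log2 differences of 0, -0.10, -0.24 and -0.37. The one at 0 held an identical value of 90.2 on both arrays, as did 6.16% of all probe sets. The sign for MTF2 therefore turned with the probe set taken, and the median over its probe sets was -0.10.

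JARID2, which marks the other assembly, was lower with PTHLH by each of its 3 probe sets. The brightest had 720 with PTHLH and 955 with the empty vector, a log2 difference of -0.41. The second had 521 with PTHLH and 638 with the empty vector (-0.29), and a dim one, below both medians, had 14.8 with PTHLH and 19.4 with the empty vector (-0.39). As with PHF1, none was 1.5-fold lower, and 9.17% of the 12982 brighter genes had a log2 difference at or below that of JARID2. AEBP2, its partner in the assembly, had 323 with PTHLH and 345 with the empty vector by its brightest probe set, a log2 difference of -0.09. The other probe set of AEBP2 had -0.29.

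**Figure D2:**
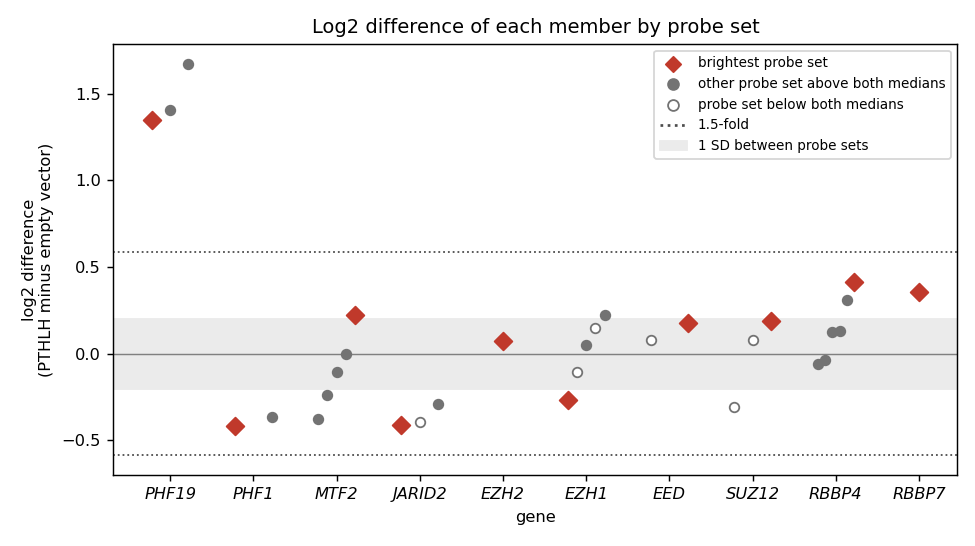
Log2 difference (PTHLH minus empty vector) of each probe set, by gene. Red diamonds are the brightest probe set of a gene, grey points its other probe sets, open points those below both array medians, dotted lines 1.5-fold, and the grey band 1 SD between probe sets (0.20). PHF19 lies between 1.35 and 1.67, PHF1 and JARID2 lie below 0 with every probe set, and MTF2 and EZH1 lie on both sides of 0.

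Of the catalytic subunits, EZH2 was close to 0 and EZH1 had no common direction. EZH2 had a single probe set, with an intensity of 61.9 with PTHLH and 58.9 with the empty vector, a log2 difference of 0.07. It lay inside 1 SD between probe sets, and no other probe set is there to set beside it. EZH1, the paralog of EZH2, had 3 probe sets above both medians that did not agree. The brightest had 90.2 with PTHLH and 108 with the empty vector, a log2 difference of -0.27. Another, designed on the same RNA record, had 84.0 with PTHLH and 72.0 with the empty vector, a log2 difference of 0.22, and the third had 0.05. This gap of 0.49 between probe sets of one gene is larger than any of the 3 differences, so no direction is given for EZH1. Its 2 dim probe sets had 0.15 and -0.10.

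The other core subunits had small positive differences by their brightest probe sets. EED had 218 with PTHLH and 193 with the empty vector, a log2 difference of 0.18. SUZ12 had 248 with PTHLH and 218 with the empty vector, a log2 difference of 0.19. Both lay within 1 SD between probe sets. The remaining probe sets of these 2 genes were below both medians, with log2 differences of 0.08 for EED and of 0.08 and -0.31 for SUZ12.

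RBBP7, a histone-binding subunit, had 544 with PTHLH and 424 with the empty vector by its only probe set, a log2 difference of 0.36. RBBP4, its paralog, had 373 with PTHLH and 280 with the empty vector by its brightest probe set, a log2 difference of 0.41. The second probe set of RBBP4 had 161 with PTHLH and 130 with the empty vector (0.31), and it has the suffix x, which marks probes that can bind unrelated transcripts. The 4 dimmer probe sets of RBBP4 lay between -0.06 and 0.13 on the log2 scale. The difference of RBBP4 was thus seen with the 2 brightest probe sets, both of which can bind several transcripts, and without them it was 0.13. Of the 12982 brighter genes, 7.02% had a log2 difference at or above that of RBBP4 and 9.94% at or above that of RBBP7.

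Over the 9 genes other than PHF19, log2 differences by the brightest probe set ran from -0.41 to 0.41, with 6 above 0 and 3 below. By the brightest probe set the median over the 10 genes, PHF19 included, was 0.18, against 0 over all genes. The 28 probe sets of the 9 genes, dim ones included, had a median of 0.026. PHF1, JARID2 and RBBP4 passed 2 SD between probe sets (0.41), and none of the 9 genes reached 1.5-fold (0.58 on the log2 scale).

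**Figure D3:**
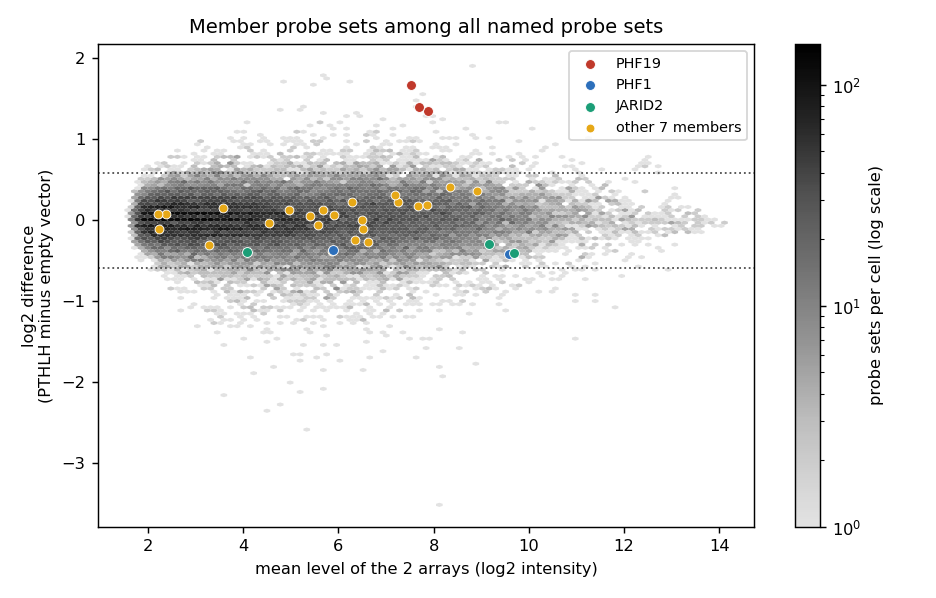
Log2 difference (PTHLH minus empty vector) against the mean log2 intensity of the 2 arrays. Grey cells count the 41097 probe sets with 1 gene symbol, coloured points are the member probe sets, and dotted lines mark 1.5-fold. The 3 PHF19 points lie above most of the cloud at their level, and the points of the other 9 genes lie within it. By the brightest probe set, 6 genes had a larger log2 difference than PHF19.

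The reference promoters of the 10 genes were searched for E2F sites, because genes of DNA replication were higher on the Ca9-22-PTHLH array, and for cAMP response elements, because PTH1R signals through cAMP. The letters searched, on both strands, were TTTCCCGC, TTTCGCGC, TTTGCCGC and TTTGGCGC for E2F and TGACGTCA for the cAMP response element. The windows came from RefSeq (GRCh38.p14), with 250 bases before and 50 after an annotated start. All 10 genes had at least 1 of the 15 windows found. An E2F match was in 5 of the 15 windows, those of PHF19, EZH2, SUZ12, MTF2 and EZH1, against 3.31% of 35116 windows in all. The member windows held 16 to 54 CG pairs, against a median of 14 over all windows, and this difference in composition was not corrected for. A match is a run of letters and does not show that a factor binds. The upstream part of the PHF19 window with a match is shown because PHF19 was the gene with the large difference. It spans chr9:120877189-120877438 on the minus strand. The match, read on the opposite strand, is in capitals 152 bases before the annotated start of that window. This start lies inside the span of PHF19 (chr9:120855651-120904128), so it is an alternative start. No window searched reached the outermost upstream end of the gene at 120904128.
PHF19: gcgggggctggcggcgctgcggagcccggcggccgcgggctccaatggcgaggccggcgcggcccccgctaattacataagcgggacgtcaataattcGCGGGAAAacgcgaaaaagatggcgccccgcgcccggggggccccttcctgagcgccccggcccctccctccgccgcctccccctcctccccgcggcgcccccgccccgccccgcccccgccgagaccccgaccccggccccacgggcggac

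The matches of the other genes are shown with their flanks. The E2F match of EZH2 lies on chr7:148884272-148884301, that of SUZ12 on chr17:31936807-31936836, that of MTF2 on chr1:93079277-93079306 and that of EZH1 on chr17:42745137-42745166. The cAMP response element was found in 1.85% of all windows and, among the 10 genes, in JARID2. Its 2 copies lie on chr6:15248733-15248762 and chr6:15248782-15248811, 111 and 62 bases before the annotated start of that window. The other windows of JARID2, PHF19 and EZH2 held no match of either kind. Capitals mark the match, and each line reads along the strand of the gene.
EZH2: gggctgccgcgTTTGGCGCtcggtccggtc
SUZ12: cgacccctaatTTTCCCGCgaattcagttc
MTF2: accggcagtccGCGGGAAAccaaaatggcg
EZH1: gcggggttttgGCGGCAAAtgacagtagtg
JARID2, first copy: tgttgtcattgTGACGTCAcaaagggacgg
JARID2, second copy: ctcctcctccgTGACGTCAaaagtcgggcg

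The 5 genes with an E2F match did not share a difference. PHF19 had a log2 difference of 1.35, and EZH2, SUZ12, MTF2 and EZH1 had 0.07, 0.19, 0.22 and -0.27 by their brightest probe sets. MTF2 and PHF19 held the same 8 letters in the same orientation, but 152 bases before the start of the window in PHF19. In MTF2 they began at base 6, with the start base counted as the first. On that count the match began at base 2 in EZH2, and it began 189 and 115 bases before the start in SUZ12 and EZH1. Whether a match bears on the values was not tested.

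Genes of DNA replication, many of them E2F targets, were set beside PHF19. Of 34 measured, 15 were at least 1.5-fold higher with PTHLH (against 1.97% of all genes) and 0 were lower, with a median log2 difference of 0.51. Among them were RRM2, a subunit of ribonucleotide reductase (812 with PTHLH and 436 with the empty vector), the flap endonuclease FEN1 and the GINS subunit GINS1 (223 with PTHLH and 125 with the empty vector). By the brightest probe set the log2 differences reached at most 1.12, for the thymidylate synthase gene TYMS, against 1.35 for PHF19. The dimmer probe sets of the list ran from -0.64, for CDT1, to 1.29, for FEN1 (110 with PTHLH and 45.0 with the empty vector). Probe sets of a gene did not always go together, as the second ones of GINS2 and RRM1, above both medians, had -0.22 and 0.20. MCM4, MCM3, GINS2, RRM1, MCM7, LIG1, POLA1 and RFC3, which were also at least 1.5-fold higher and above the median on 1 array or both, lay between 0.59 and 1.09. The 15 also held CDC6 and ORC1, which were dim, below both medians. CDC6 had 18.8 with PTHLH and 10.9 with the empty vector, and ORC1 had 16.9 with PTHLH and 10.4 with the empty vector. The 6 core PRC2 genes had a median of 0.18 and none of them was 1.5-fold higher. Whether the difference of PHF19 goes with that of the replication genes was not tested, since both come from 1 pair of arrays.

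PRC2 shares RBBP4 and RBBP7 with other complexes. Of 11 further subunits of NuRD, a deacetylase and remodelling complex, 1 was at least 1.5-fold higher and 0 were lower, with a median log2 difference of 0.05. This was the remodeller CHD3, with 248 with PTHLH and 155 with the empty vector (0.67), and its second probe set had 0.68. HDAC1 and HDAC2, the deacetylases of that complex, had log2 differences of 0.04 and -0.01. Of 10 measured partners in the SIN3 complex, in the chromatin assembly factor CAF-1 and in the histone acetyltransferase HAT1 complex, 0 were past 1.5-fold in either direction, with a median of 0.08. CHAF1A, the large subunit of CAF-1, had 116 with PTHLH and 83.9 with the empty vector (0.47), and all 4 of its probe sets had positive differences. HAT1 itself had 161 with PTHLH and 123 with the empty vector (0.39).

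Most other genes of the Polycomb system lay within 1.5-fold. Apart from JARID2 and the Polycomb-like genes, the other 5 accessory genes of PRC2 were all within 1.5-fold. They included LCORL, with 99.1 with PTHLH and 122 with the empty vector (-0.30). These 5 genes and JARID2 had a negative log2 difference, with a median of -0.11 over the 6. By the brightest probe set EPOP, AEBP2, LCOR and EZHIP lay inside 1 SD between probe sets, from -0.09 to -0.12. The other probe set of AEBP2 was outside it (-0.29), and EZHIP was below both medians. Of 21 measured genes of Polycomb repressive complex 1, which ubiquitinates histone H2A and compacts chromatin, 0 were at least 1.5-fold higher and 1 was lower, a share near that of all genes. It was CBX7, a reader of the PRC2 mark, with 213 with PTHLH and 341 with the empty vector by its only probe set (-0.68). With the probe set of the largest difference 1 gene was higher, PCGF5 (0.83), and 2 were lower, CBX7 and PCGF3 (-0.86).

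Genes that act against Polycomb marks, and the H3K36 methyltransferase genes, also lay within 1.5-fold. Of 5 measured H3K27 demethylase and PR-DUB genes, which act against Polycomb marks, 3 had a positive and 2 a negative log2 difference. ASXL1 had 286 with PTHLH and 198 with the empty vector (0.53). ASXL2 had 243 with PTHLH and 182 with the empty vector (0.41), but other probe sets of both genes had negative differences. The demethylase gene KDM6A had 45.8 with PTHLH and 42.3 with the empty vector (0.12). KDM6B, another demethylase gene, had 295 with PTHLH and 357 with the empty vector (-0.28), and all its probe sets were lower with PTHLH. Of 6 measured H3K36 methyltransferase genes, 5 had a positive log2 difference, with a median of 0.31. The 2 largest were SMYD2, with 152 with PTHLH and 108 with the empty vector (0.50), and NSD1, with 74.3 with PTHLH and 55.5 with the empty vector (0.42). SETD2 had 166 with PTHLH and 142 with the empty vector (0.22). Without probe sets of the suffixes x and s the median of this list was 0.034.

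**Figure D4:**
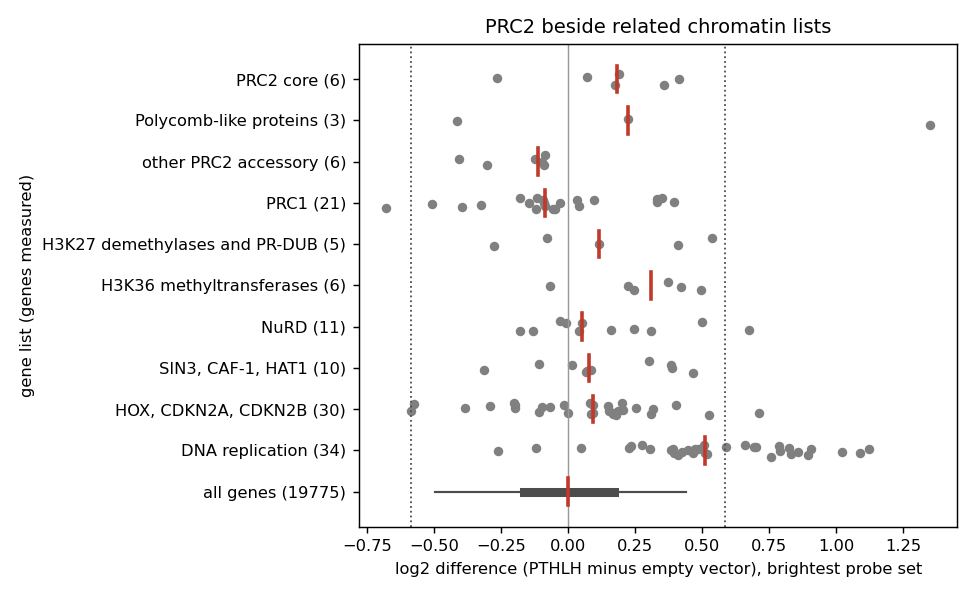
Log2 difference (PTHLH minus empty vector) of each measured gene by its brightest probe set, for PRC2 and related lists, with the number of genes measured in parentheses. Grey points are genes, red lines the medians, dotted lines 1.5-fold, and the bars for all genes span percentiles 5 to 95 (thin) and 25 to 75 (thick). PHF19 at 1.35 is the point farthest to the right, and the median of DNA replication lies at 0.51 against 0.18 for the PRC2 core.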

How the data were processed

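The authors deposited a linear-scale intensity for each probe set of 1 Affymetrix U133 array per condition. How they corrected background, normalized and summarised probes is not stated by the labels or methods read for this work. The 41097 probe sets with 1 gene symbol were named through the platform annotation, with symbols taken by gene identifier from RefSeq (GRCh38.p14), and 1801 with several symbols and 11777 unnamed here were left out. The log2 intensity of the empty vector array was subtracted from that of the PTHLH array. The probe set with the greatest mean log2 intensity stood for its gene, and genes past 1.5-fold, the threshold of the study, were counted upward and downward. With a single array per condition there was no spread between cultures and hence no test. Precision is limited by the number of arrays. Members, gene lists and motifs were chosen with earlier results of these data known. Named from each list were genes past 1.5-fold and above the median on at least 1 array, or else the 2 with the largest difference. Also named, but chosen after their values were seen, were AEBP2, HDAC1, HDAC2, CDKN2A, CDKN2B, CDX2, KRT14, DSG3, SFN, PCGF3 and PCGF5. So were KDM6A, KDM6B, SETD2, EPOP, LCOR, EZHIP, CDC6, ORC1 and CDT1. The fibroblast, leukocyte and endothelium markers that meet the rule are mostly given as ranges. Leukocyte and endothelium markers were checked too (highest intensity 128 with PTHLH and 129 with the empty vector, both for VWF). The alternatives were quantile normalization, centring, other choices of probe set, a floor, a filter on dim probe sets and a 2-fold threshold. The script was tested on simulated data. Python 3.11.15, pandas 2.3.3, numpy 2.4.6 and matplotlib 3.10.9 were used.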

Additional observations from a re-analysis of the deposited data

How the results depend on the processing

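The log2 difference of PHF19 was 1.33 with quantile normalization, 1.40 with the median over probe sets and without the suffixes x and s, and 1.67 when the probe set with the largest difference was taken, a choice that can only raise it. Centring had a shift of 0, and the floor and the filter on dim probe sets do not reach its bright probe sets, so these 3 settings could not move it. With every alternative, the 2-fold threshold included, 1 of the members was higher and 0 were lower. EZH2 has no value without the suffixes x and s, since its only probe set carries s. Taking the probe set with the largest difference, the median over the members was -0.10 (main 0.18), as dim or discordant probe sets then stood for SUZ12 and MTF2, and the median of the SIN3 and CAF-1 list was 0.32 (main 0.08). The median of the 3 Polycomb-like genes, set by MTF2, was 0.22, against -0.10 with the median over probe sets, -0.37 with the largest difference and -0.24 without the suffixes x and s. Without those suffixes the H3K36 methyltransferase median was 0.034 (main 0.31), and it was 0.15 with the median over probe sets and 0.39 with the largest difference. Over all genes, 390 were higher and 696 lower, against 248 and 444 with the median over probe sets, 689 and 984 with the largest difference, and 36 and 145 at 2-fold. Of the replication genes 15 were higher, against 12 with the median over probe sets, 11 without the suffixes x and s, and 3 at 2-fold. The count was 13 with the floor or the filter on dim probe sets, and 17 with the largest difference, where 1 was lower. Quantile normalization moved no median by more than the SD between probe sets. No paired analysis was possible because each condition had 1 array, and no replicate could be left out.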

Other observations

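HOX genes and the CDKN2A and CDKN2B genes, which Polycomb proteins are known to silence in many cell types, had a median log2 difference of 0.09 over 30 measured genes. By the brightest probe set 1 was at least 1.5-fold higher and 1 lower, against 1.97% and 3.52% of all genes. Neither was past 1.5-fold with the median over probe sets, and 0 were lower with quantile normalization. The higher one was HOXB9, with an intensity of 122 with PTHLH and 74.4 with the empty vector (a log2 difference of 0.71), though its second probe set, which was dim, had -0.08. The lower one was HOXB3, with 13.4 with PTHLH and 20.1 with the empty vector (-0.59), values near or below the array medians. CDKN2B, the CDK inhibitor p15, had 93.3 with PTHLH and 139 with the empty vector (-0.58), just within 1.5-fold, while its second probe set had 0.18, and CDKN2A had 1006 with PTHLH and 944 with the empty vector (0.09). Another 11 genes of the list, 10 of them in the HOXA cluster, are not analysed here.

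The deposited intensities were not spread evenly over the decimals. Of 19734 probe sets between 30 and 1000 on both arrays, 8.99% had values on both arrays that lay within 0.002 of a grid with steps of 0.5 units, where an even spread would put 0.8% of the values of 1 array. Among the member probe sets 4 lay on it. They were the only probe set of EZH2, whose 2 values were 3.0 units apart, the only one of RBBP7, the dimmest of PHF19 and one of MTF2. The log2 differences of probe sets on the grid had an interquartile range of 0.38, against 0.36 off it. What made the grid was not tested.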
